A study of Danio rerio with 85 samples.

Results

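The regions described here are stretches of the zebrafish genome where Rnf2 was found on chromatin of wildtype embryos and no H3K27me3 peak lay over it. They were chosen from the deposited peak lists. Peaks at most 1000 bp apart were merged within each sample, merged peaks that overlapped a peak of an input were dropped, and the Rnf2 lists of both wildtype samples were joined into 1490 regions. Of these, 774 overlapped no H3K27me3 peak of either wildtype sample (51.9%, 95% Wilson confidence interval 49.4% to 54.5%, counting error only), and the other 716 overlapped at least 1. The regions were thus defined by the presence of 1 kind of peak and the absence of another, and their width, strength and replicate agreement below are descriptions of that choice and were not tested. The share of 51.9% counts regions of either sample, and 728 of the 774 were found in 1 wildtype sample only. Among regions found in both samples, 46 lacked H3K27me3 and 429 overlapped it. The paper's methods considered intersecting peaks of replicates, whereas the union was used here.

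Rnf2, also called Ring1b, is the catalytic core of Polycomb Repressive Complex 1 (PRC1), which attaches ubiquitin to histone H2A. PRC2 trimethylates lysine 27 of histone H3 (H3K27me3), and canonical PRC1 carries a Cbx subunit that reads this mark, so both complexes are commonly found at the same silenced developmental genes. Variant PRC1 carries Rybp or Yaf2 in place of Cbx and, in mammalian cells, can be brought to chromatin without H3K27me3, for instance by Kdm2b at unmethylated CpG islands or by the E2f6, Mga and L3mbtl2 proteins.

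ChIP-seq was made from pools of whole embryos at 3 days post fertilization (dpf), in *rnf2* mutants (genotype myl7:GFP_rnf2-/-, 3 samples for each antibody, replicates 2, 3 and 4) and in wildtype embryos (myl7:GFP_rnf2+/+, 2 samples for each antibody, replicates 1 and 2), all in a TU/TLF mixed background. The myl7:GFP transgene, which marks heart muscle, was thus shared by both genotypes, and mutants were picked by phenotype among the offspring of heterozygous parents. Rnf2 was precipitated with an antibody against RING1B and H3K27me3 with an antibody against the mark, and 1 input, chromatin without precipitation, was sequenced for each genotype. Embryos of the same age and both genotypes were also used for RNA-seq. Read depth cannot be had from peak lists, and every statement about absence means that no peak was called or that none was left after the input filter.

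The 774 regions were narrow and weak. Their median width was 226 bp (quartiles 176 and 382.5 bp, range 153 to 2028 bp), against 1645.5 bp (quartiles 516.75 and 4185.5 bp, up to 62329 bp) in the 716 Rnf2 regions with H3K27me3. Of the regions without H3K27me3, 425 (54.9%) were narrower than 250 bp and 13 were wider than 1000 bp, against 87 (12.2%) and 428 of those with H3K27me3. Although they were the larger group by number, they covered 247561 bp in all, against 2305488 bp. The narrowest region was 170 bp wide in replicate 1 and 153 bp wide in replicate 2, and the lower quartiles of 184 bp and 166 bp lay close to these minima.

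Fold enrichment, the ratio of ChIP reads to background given by the authors at the strongest peak of a region, differed less between both groups than width did. The median was 3.60 (quartiles 3.42 and 3.88) in regions without H3K27me3 and 3.97 (quartiles 3.64 and 4.41) in those with it, and the highest values were 15.1 and 15.9. A fold of 5 or more was reached by 12 of the 774 regions (1.55%) and by 67 of the 716 (9.36%). The −log10 q value of the strongest peak, where larger means less likely to be background by the peak caller's own model, had a median of 1.65 against 2.54. A q value of 0.01 or lower, that is a −log10 q of at least 2, was found in 226 regions without and 484 regions with H3K27me3. The broad peaks were called with a loose cutoff and hold inside them any stretches that pass a stronger one. Such a stretch was found in 88 of the 774 regions (11.4%, interval 9.32% to 13.8%) and in 421 of the 716 (58.8%, interval 55.2% to 62.3%).

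**Figure D1:**
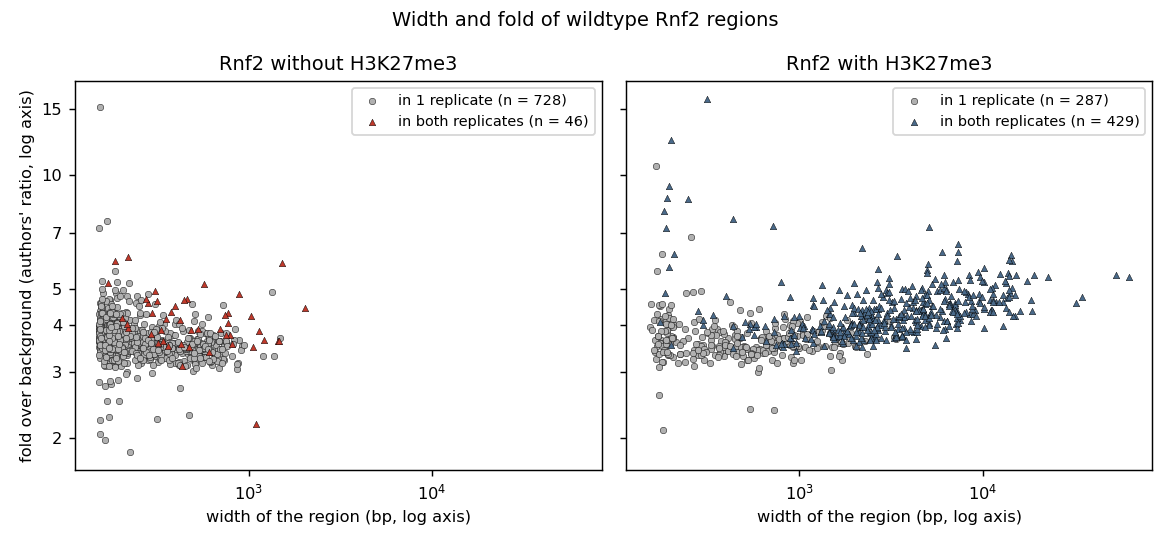
Width (x axis, bp, log scale) and fold over background (y axis, the authors' ratio, log scale) of each wildtype Rnf2 region, with the 774 regions without H3K27me3 in the left panel and the 716 with it in the right panel. Grey circles are regions found in 1 wildtype replicate and coloured triangles those found in both. The left panel stops at 2028 bp with 46 triangles, whereas 429 triangles in the right panel reach 62329 bp.

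The regions without H3K27me3 mostly belonged to 1 wildtype sample. Both samples gave a peak in 46 of 774 regions (5.94%, interval 4.49% to 7.84%), against 429 of 716 (59.9%, interval 56.3% to 63.4%). Another 361 were found in replicate 1 only and 367 in replicate 2 only, so both samples contributed about equally. Of the 407 regions present in replicate 1, 11.3% were also in replicate 2, and of the 413 in replicate 2, 11.1% were also in replicate 1. The same shares were 69.3% and 81.6% for regions with H3K27me3. For the 728 regions seen once, the nearest deposited peak of the other sample, before any filter, was at a median distance of 374845 bp, and 75 (10.3%) had one within 10 kb. The 287 regions with H3K27me3 seen once had a median distance of 3024.5 bp, with 172 (59.9%) within 10 kb.

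Agreement was higher in the wider bins and in those of larger −log10 q in both groups, and lower without H3K27me3 in each bin. Among regions narrower than 200 bp, 2 of 328 without and 7 of 62 with H3K27me3 were found in both samples. At 300 to 600 bp the counts were 18 of 196 (9.18%, interval 5.89% to 14.0%) and 15 of 93 (16.1%, interval 10.0% to 24.9%). These intervals measure counting error over regions, not the spread between samples, and were not used to test the groups. In the bins with a −log10 q of 2 or more the groups stood farther apart than in these bins of joined width. With a −log10 q of at least 4, 14 of 35 regions without (interval 25.6% to 56.4%) and 120 of 131 regions with H3K27me3 (91.6%, interval 85.6% to 95.2%) were in both samples. Joining peaks of both samples can widen a region and the strongest peak was used, so a region in both samples tends towards the higher bins. Binned by the width within a single sample instead, agreement was again lower without H3K27me3 in each bin. For widths of 300 to 600 bp in replicate 1, 15 of 99 regions without and 27 of 73 with H3K27me3 were in both samples. For the same widths in replicate 2 the counts were 15 of 109 and 51 of 85. At these widths the groups stood farther apart than by joined width. They stood closest at 200 to 300 bp in replicate 1, with 14 of 96 and 9 of 38.

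**Figure D2:**
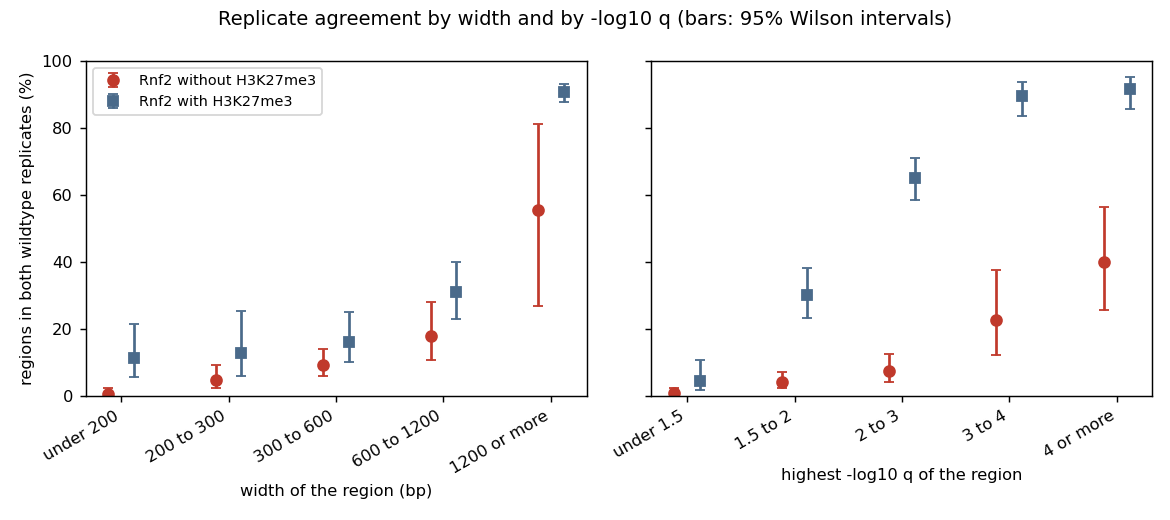
Share of wildtype Rnf2 regions found in both replicates (y axis, %), in bins of width (left, bp) and of the highest −log10 q (right). Red circles are regions without H3K27me3, blue squares those with it, and bars are 95% Wilson intervals. In the last bin of the right panel the circle stands for 14 of 35 regions and the square for 120 of 131.

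The 46 regions found in both samples had like folds in them. Their median fold was 3.86 in replicate 1 and 3.78 in replicate 2, and the log2 ratio of both folds had a median size of 0.14, against 0.09 in the 429 regions with H3K27me3 found in both. The fold was higher in replicate 2 for 29 and in replicate 1 for 17. The 46 were wider (median 451 bp), stronger (median fold 4.04, median −log10 q 3.00) and more often held a stretch past the stronger cutoff (58.7%) than the 774 as a whole, and yet narrower than the 429 regions with H3K27me3 found in both (3318 bp, fold 4.27, −log10 q 3.15, 85.5% with such a stretch). Joining 2 samples and taking the strongest peak can raise such values. Within replicate 1, median widths were 311 bp in the 46 and 239 bp in all regions without H3K27me3 (folds 3.86 and 3.51). Within replicate 2 they were 385.5 and 217 bp (folds 3.78 and 3.69). Of the 46, 21 had a −log10 q of at least 2 in both samples (45.7%), against 279 of 429 (65.0%). They lay on 19 chromosomes. Regions found in 1 sample only had nearly the same fold whether they lacked H3K27me3 (median 3.58) or carried it (3.57), while their median widths were 216 and 456 bp.

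The 10 of these with the highest mean fold were between 171 and 1514 bp wide (positions in GRCz10). The highest was chr4:43607404-43607591, 188 bp wide, with a fold of 4.92 in replicate 1 and 5.91 in replicate 2. It was followed by chr7:33413587-33415100, whose fold was 5.84 in replicate 1 and 4.71 in replicate 2 and whose 1514 bp made it the widest of the 774 after one on chromosome 22. The next were chr6:1802437-1802657 (fold 4.39 in replicate 1 and 6.07 in replicate 2), chr5:52742380-52742550 (4.95 and 5.16) and chr2:48205057-48205625 (5.14 and 4.69). The remainder, with mean folds between 4.31 and 4.77, were chr24:17093431-17093872, chr23:43738674-43739071 and, within a single stretch of chromosome 22, chr22:11180164-11180470, chr22:11344417-11345298 and chr22:11165754-11166213. None of the 10 overlapped an Rnf2 peak of a mutant. The widest of the 774 was also in that stretch, at chr22:11112823-11114850 (2028 bp), with a fold of 3.99 in replicate 1 and 4.43 in replicate 2. Before merging, its peaks covered 963 bp in replicate 1 and 625 bp in replicate 2. Besides the region on chromosome 7, the other wide ones were chr24:16993815-16995301 (1487 bp, replicate 1 only), chr18:20235810-20237269 (1460 bp, both) and chr13:5437803-5439244 (1442 bp, both). The peaks of the one on chromosome 24 covered 616 bp before merging. Which genes lie at these positions was not analysed here, because no annotation of the same genome build was at hand.

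That stretch of chromosome 22 held the longest chain of regions. When regions without H3K27me3 at most 100 kb apart were linked, 21 chains of 3 or more held 103 of the 774 (13.3%), against 74 chains with 306 of the 716 (42.7%). The longest ran over chr22:11109782-11393551, or 283.77 kb, and counted 21 regions, whereas the longest chain of regions with H3K27me3 counted 11. Those 11 were up to 53388 bp wide, against up to 2028 bp for the 21, so these counts do not compare like regions. Of the 21 regions, 11 (52.4%) were found in both samples, 3 in replicate 1 only and 7 in replicate 2 only. Outside the chain, 35 of 753 regions (4.65%) were found in both samples. The stretch was picked after the values had been seen, as the longest of its kind.

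The 21 regions were spaced by 1308 to 62809 bp, with a median of 12693 bp, and their widths ran from 155 to 2028 bp with a median of 342 bp. Their median fold was 4.01 and their median −log10 q 2.57, both above those of the 774. The strongest q value of the chain was that of chr22:11165754-11166213, with a −log10 q of 5.11 in replicate 1 and 6.54 in replicate 2. Its nearest H3K27me3 peak was 45157 bp away, the farthest of the chain. A fold of 4.63 in replicate 1 and 4.91 in replicate 2 was found at chr22:11180164-11180470, which lay 42369 bp from the mark. The nearest, chr22:11337049-11337422, lay 21 bp from the mark and was called in replicate 2 only, with a fold of 3.60. Other regions went the other way. At 707 bp, chr22:11344417-11345298 had folds of 3.91 in replicate 1 and 4.84 in replicate 2. At 40493 bp, chr22:11161090-11161431 had folds of 3.63 and 3.35. Fold against distance was not tested. The stretch was not free of H3K27me3. Replicate 1 had 6 and replicate 2 had 2 H3K27me3 peaks in it, which together covered 1.72% of its length, and 2 further Rnf2 regions overlapped them. No peak of either input and no Rnf2 peak of any mutant lay within it.

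**Figure D3:**
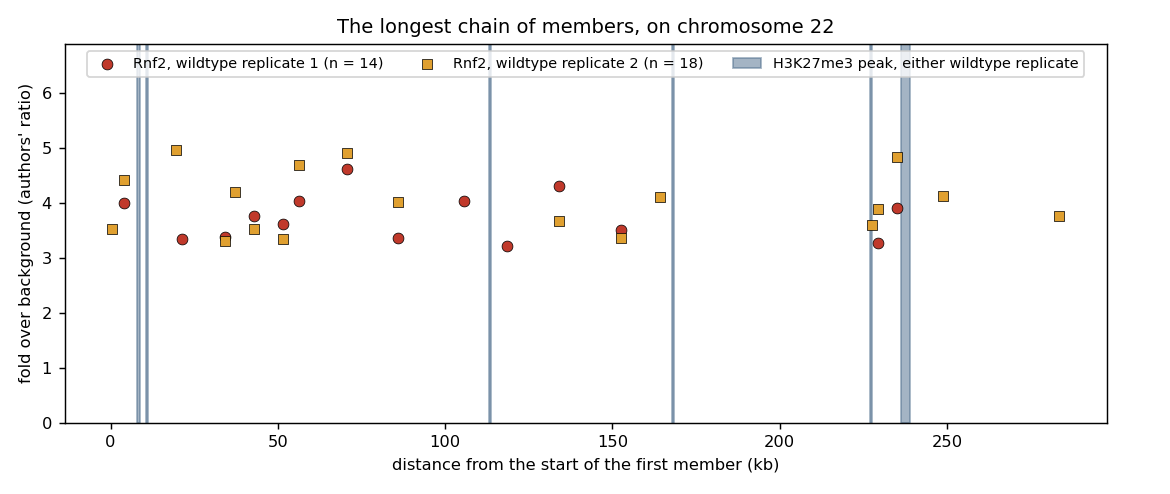
The 21 regions of the longest chain, with the distance from the start of the first region on the x axis (kb) and the fold over background on the y axis (the authors' ratio). Red circles are peaks of wildtype replicate 1 (14) and yellow squares peaks of replicate 2 (18), and blue bands are H3K27me3 peaks of either wildtype sample, drawn at least 0.6 kb wide. By the choice, no region drawn overlaps an H3K27me3 peak, and the 2 Rnf2 regions of the stretch that do are not drawn. Folds run from 3.22 to 4.96.

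Shorter chains were seen elsewhere. At chr10:27313435-27522323, 8 regions, 3 of them in both samples, had folds between 3.32 and 3.92, with 14 H3K27me3 peaks and 2 input peaks in the same stretch. At chr5:23836849-23962496, 7 regions lay with 2 H3K27me3 peaks and 0 input peaks, and at chr5:17086230-17264813 there were 6 regions with neither. A chain of 4 regions at chr17:45204845-45257005 shared its stretch with 22 input peaks.

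Most of the 774 regions had no near neighbour of their kind. The median distance to the nearest region of the same kind was 409992 bp, against 2707 bp among regions with H3K27me3, and 71 of 774 (9.17%) had such a neighbour within 10 kb, against 433 of 716 (60.5%). The nearest wildtype H3K27me3 peak was at a median of 187816 bp (quartiles 43052 and 460488 bp), and 24 regions lay within 1 kb of one, 101 (13.0%) within 10 kb and 290 (37.5%) within 100 kb. Of those near the mark more were found in both samples, with 18 of the 101 within 10 kb (17.8%) against 28 of the 673 farther away (4.16%), while the median fold was 3.60 and 3.59. At the limit of the choice, the regions just inside it lay 0, 17 and 21 bp from an H3K27me3 peak, and those just outside it overlapped one by 1, 29 and 33 bp. Another 7 of the 774 overlapped a deposited H3K27me3 peak that had been dropped with an input peak. Input peaks lay within 1 kb of 17 of the 774 (2.20%) and of 2 of the 716 (0.279%). None of these 17 was found in both samples, and their median fold was 3.33, against 3.60 in the other 757.

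All 25 chromosomes held regions without H3K27me3, with 2 more regions on unplaced scaffolds. On 10 chromosomes they outnumbered the regions with H3K27me3 and on 15 they did not. They made up the largest share on chromosome 4, with 32 of 41 regions (78.0%, interval 63.3% to 88.0%), followed by chromosome 22 with 44 of 59 (74.6%, interval 62.2% to 83.9%), chromosome 10 with 34 of 47 (72.3%) and chromosome 11 with 32 of 46 (69.6%). The smallest share was on chromosome 16, with 24 of 63 (38.1%, interval 27.1% to 50.4%). On chromosome 4, 28 of the 32 lay in the part before 38.2 Mb, the middle of its covered length, as did 8 of the 9 with H3K27me3. The number of regions without H3K27me3 per Mb, with the last peak taken as the end of a chromosome, ranged from 0.370 on chromosome 2 to 1.12 on chromosome 22, with a median of 0.554. On chromosome 4 it was 0.419, below that median, so the large share there went with few regions with H3K27me3. On chromosomes 10 and 11 it was 0.747 and 0.711. Chromosome 22 held 12 of the 46 regions found in both samples, and 6 chromosomes held none of them. The longest chain alone, a stretch of 283.77 kb, supplied 21 of the 44 regions on chromosome 22 and 11 of these 12.

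**Figure D4:**
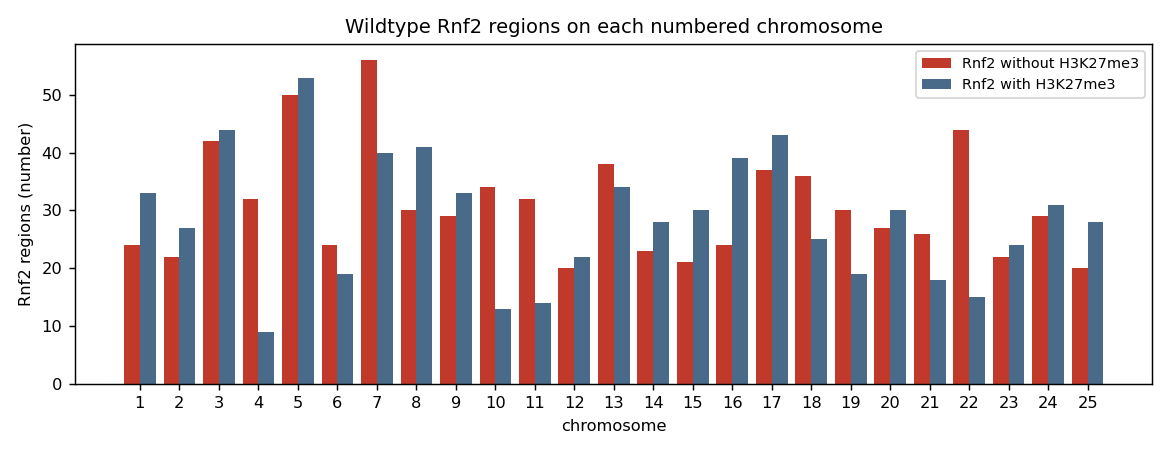
Number of wildtype Rnf2 regions (y axis) on each of the 25 numbered chromosomes (x axis), with those without H3K27me3 as red bars and those with it as blue bars. Chromosomes 4, 10, 11 and 22 have 32, 34, 32 and 44 red against 9, 13, 14 and 15 blue.

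The H3K27me3 and Rnf2 peak lists of *rnf2* mutants took no part in the choice and were used to ask whether the regions carry such peaks when Rnf2 is lost. The input list of mutants did take part, since merged peaks that overlapped a peak of either genotype's input were dropped. H3K27me3 peaks of mutant replicates 2, 3 and 4 overlapped 11, 3 and 13 of the 774 regions (1.42%, 0.388% and 1.68%), against 602, 304 and 638 of the 716 (84.1%, 42.5% and 89.1%). The mean was 1.16% ± 0.684 without and 71.9% ± 25.6 with wildtype H3K27me3 (SD, n = 3 mutant samples). As the groups were split by the wildtype mark, the direction of this difference follows from the choice and was not tested. The 1.16% rested partly on 1 library, since it was 2.83% when H3K27me3 of wildtype replicate 1 was left out of the choice. Replicate 3 had the fewest H3K27me3 peaks of the mutants, with 1031 after filtering against 2861 and 2855. A wider region is easier to overlap, so regions of like width were also set side by side. Below 250 bp, 1.18%, 0.471% and 1.65% of the 425 regions without H3K27me3 and 54.0%, 12.6% and 56.3% of the 87 with it were overlapped in replicates 2, 3 and 4.

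In all, 21 of the 774 regions (2.71%, interval 1.78% to 4.11%) had an H3K27me3 peak in at least 1 mutant, 15 in 1 mutant and 6 in 2 mutants. None had one in all 3. Within 10 kb of a wildtype H3K27me3 peak, 10 of 101 regions (9.90%) had one, and farther away 11 of 673 (1.63%). Of the 46 regions found in both wildtype samples, 3 had one, namely chr22:11243533-11243828, chr22:11344417-11345298 and chr23:43738674-43739071, each in 1 mutant. The first of these lay 20122 bp and the second 707 bp from wildtype H3K27me3, and the third 937845 bp.

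**Figure D5:**
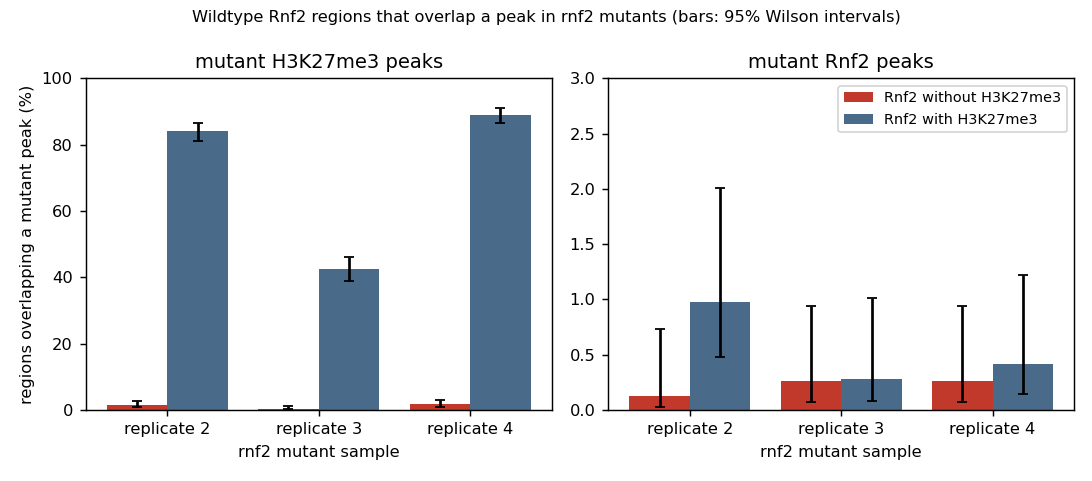
Share of wildtype Rnf2 regions (y axis, %) that overlap an H3K27me3 peak (left) or an Rnf2 peak (right) of each *rnf2* mutant sample (x axis). Red bars are the 774 regions without wildtype H3K27me3, blue bars the 716 with it, and error bars are 95% Wilson intervals. The panels differ in scale, from 0.388% to 89.1% on the left and from 0.129% to 0.978% on the right.

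Few regions of either group had Rnf2 peaks in mutants once input peaks had been dropped. Mutant replicates 2, 3 and 4 had 18, 38 and 22 Rnf2 peaks left after filtering, and they overlapped 1, 2 and 2 of the 774 regions (mean 0.215%) and 7, 2 and 3 of the 716 (mean 0.559%). The difference of −0.34 percentage points was negative in 3 of 3 samples (two-sided exact sign-flip permutation test over samples, p = 0.25, the smallest that 3 samples allow). The test thus could not call a difference whatever the data. A wider region is easier to overlap, and the 716 covered 2305488 bp in all, against 247561 bp for the 774. Regions of like width were not compared for mutant Rnf2 peaks. With input peaks left in place for both antibodies, the means were 0.350% without and 4.93% with H3K27me3. Without Rnf2 of wildtype replicate 2 the mean was 0.0815% in regions without H3K27me3. The difference was positive, with 0.417% against 0.338%, when H3K27me3 of wildtype replicate 2 was left out. Only 3 of the 774 regions overlapped any mutant Rnf2 peak, and none of these was among the 46 found in both samples.

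These 3 included the highest folds of all 774. The region chr13:40038796-40038950, 155 bp wide and called in wildtype replicate 2 only, had a fold of 15.1 and a −log10 q of 32.1, and it overlapped Rnf2 peaks of 2 mutants and H3K27me3 peaks of 2 mutants. The second highest fold, 7.57, was found at chr5:9074743-9074912, again in wildtype replicate 2 only, with Rnf2 peaks in 2 mutants and H3K27me3 peaks in 2 mutants. Both were thus listed with either antibody in embryos with mutated *rnf2*. That neither overlapped an input peak follows from the choice, as for all 774 regions. The last of them, chr13:40344357-40344544, was seen in wildtype replicate 1 only with a fold of 3.65 and in 1 mutant with each antibody. The third highest fold, 7.24 at chr20:12990810-12990962 in wildtype replicate 2 only, had no peak in any mutant.

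RNA-seq of whole embryos was used to look at the genes of variant PRC1 itself, the form of the complex that does not read H3K27me3. The libraries were 7 pools of *rnf2* mutants (TU/TLF mixed background) and 8 pools of wildtype embryos (TLF), with 6251467 to 11036762 and 4711185 to 12585927 reads. These strains are those of the labels, and by them strain and genotype cannot be told apart. The study's methods instead describe the wildtype controls as sharing the background of the mutants, and which applies could not be settled here. Nothing in the labels says that the pools came from separate parents, and p-values measure the spread between these pools. The *rnf2* transcript, in normalized read counts, was between 116 and 153 (median 142) in mutants, against 497 to 699 (median 594) in wildtype. The groups did not overlap, and the log2 fold change, on the scale of log2(count + 1), was −2.08 ± 0.08 (SE; limma treat against a log2 change of 1, Benjamini-Hochberg adjusted p = 1.66e-08, lower in 7 of 7 mutants). All 8 marker genes of brain, muscle, heart, blood, skin, liver, pancreas and lens were measured, as a whole embryo would have them. The liver marker *fabp10a* was called lower in mutants (log2 −1.83 ± 0.22, adjusted p = 0.0364 by limma treat, which called 1.91% of all genes). Against no change, limma called 3 of the 8 higher and 4 lower, where 28.7% of all genes were called higher and 27.3% lower. What part differences in tissues have in the genes below was not tested. As all cells were pooled, less RNA per cell and fewer cells of a type cannot be told apart.

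None of the 17 variant PRC1 genes tested, of 19 listed, passed this test, which called 434 of 22685 genes (1.91%), 1.01% higher and 0.908% lower in mutants. An unadjusted p under 0.05 was reached by 0 of the 17, and edgeR's equivalent test on the recovered reads also called 0. Their median log2 fold change was 0.29 (range −0.52 to 1.14), beside 0.03 over all genes tested. Against no change at all, limma called 9 of the 17 higher in mutants, where 28.7% of all genes were called higher, and 3 lower, where 27.3% of all genes were called lower (adjusted p at most 0.1).

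Among the members of the complex with Pcgf1, *bcor*, which encodes the Bcl6 corepressor, had a normalized count between 309 and 387 (median 372) in mutants, against 135 to 222 (median 156) in wildtype. All 7 mutants lay above all 8 wildtype pools, and the log2 fold change was 1.14 ± 0.09 (SE; limma treat, adjusted p = 1; limma against no change, adjusted p = 4.15e-09). Its paralog *bcorl1* (log2 0.68) and *kdm2bb* (log2 0.73), which codes for a protein that binds CpG islands, also lay higher in 7 of 7 mutants, while *pcgf1* itself had 81.9 ± 12.4 in mutants and 79.5 ± 12.1 in wildtype (SD, n = 7 and 8). Among genes of the Pcgf3 and Pcgf5 complexes, in which Auts2 and Fbrsl1 take part, *auts2b* had counts of 158 to 194 (median 184) in mutants, against 85.2 to 104 (median 92.8) in wildtype, and *fbrsl1* of 176 to 242 (median 202) in mutants, against 106 to 132 (median 110) in wildtype. Neither pair of groups overlapped. The groups did overlap for *pcgf5b* (log2 1.09), *auts2a* (log2 0.68) and *pcgf5a* (log2 0.20). How many of all genes had groups that did not overlap was not counted, so the lack of overlap cannot be read as particular to these genes. Among the genes of Rybp and Yaf2, *rybpb* lay higher in mutants (log2 0.49), and *rybpa* (log2 −0.21) and *yaf2* (log2 −0.28) lay lower, all with groups that overlapped. In the Pcgf6 complex, *pcgf6* (log2 −0.18) and *e2f6* (log2 −0.21) lay lower in mutants, with groups that overlapped. Of the Pcgf6 complex, *l3mbtl2*, a reader of chromatin with MBT repeats, was lower, with 169 to 207 (median 183) in mutants, against 242 to 298 (median 263) in wildtype (log2 −0.52 ± 0.07; limma treat, adjusted p = 1; limma against no change, adjusted p = 4.01e-06), and the Max partner *mga* had 370 ± 42.4 in mutants and 302 ± 15.2 in wildtype.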

How the data were processed

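The data were deposited peak lists of 12 ChIP-seq samples and tables of 15 whole embryo RNA libraries. ChIP reads were aligned by the authors with BWA 0.7.15 (GRCz10) and thinned in proportion to a *Drosophila* spike-in, and MACS2 2.1.1 was then run on each sample for broad peaks. The deposited columns give a ratio (fold over background) and the −log10 of p and q values. Unlike the others, the ChIP lists of wildtype replicate 2 carry no mark of normalization, and it is unknown whether all lists are on the same scale. Depth is unknown for these files. For RNA the authors mapped with STAR 2.5.2b and normalized with DESeq2 1.16.1. For its own test of differential expression the paper first removed a batch effect with RUVSeq. The comparisons made here had no batch term, and any part of a batch in them was not tested. Each deposited value is a signal obtained by dividing a gene's count by the size factor of its library, and 100% were whole multiples of the smallest step of their library (tolerance 1e-04).

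Members and gene lists were chosen with earlier results of these data known. Regions were merged, filtered and overlapped (at least 1 bp) in Python 3.11.15, with interval code tested on simulated data against bedtools 2.31.1. Shares have 95% Wilson intervals, which treat regions as independent and give counting error only. The regions named are the 10 of highest mean fold among those in both replicates, the 5 widest, the 3 nearest to H3K27me3, and, chosen after their values were seen, those overlapping mutant Rnf2 peaks, those of highest fold in 1 replicate and the longest chains. Shares with a mutant Rnf2 peak were compared over mutant samples by an exact sign-flip permutation test. Mutants were compared with wildtype in R 4.3.3 with limma 3.58.1 (treat, log2 fold change of 1, trend, pseudocount 1, mean normalized count 5 or above, adjusted p of at most 0.1), and with edgeR 4.0.16 on recovered whole reads. This model was tested on simulated data. Listed genes were found by name in the heart tables or the reference. Genes at the regions, the sequences of the regions and the heart libraries were not analysed here. The canonical PRC1 list is not reported here.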

Additional observations from a re-analysis of the deposited data

Results flagged for a closer look

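Among 36 groups of libraries (18 genes in each genotype), 4 had a library far from the rest, where chance gives about 1 in 20 groups. In wildtype, *bcor* had 222 normalized counts in replicate 11, with the next library at 172, and *fbrsl1* had 132 in replicate 3, with the next at 116. In mutants, replicate 2 stood apart for a pair of genes, with 267 counts of *yaf2*, the next library being at 224, and 102 of *e2f6*, the next being at 120.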

How the results depend on the processing

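Of 89 alternative values, 78 were counted as unchanged. For shares with a mutant peak, this meant the same direction and side of the threshold. For medians it meant a move smaller than the spread between replicates, and for shares in both samples a value within the Wilson interval. For counts it meant a move within a fixed ratio. The 78 include every alternative for mutant H3K27me3 peaks, whose direction follows from the choice. With 3 or fewer mutant samples, no p-value of the sign-flip test could cross the threshold. Among these 78, the share with a mutant H3K27me3 peak was 2.83% without H3K27me3 of wildtype replicate 1 and 2.75% with only H3K27me3 peaks at or above their median −log10 q, against 1.16%, and the difference in mutant Rnf2 peaks was −4.58 percentage points with input peaks left in place, against −0.34. With only Rnf2 peaks at or above the median −log10 q, 175 regions had no H3K27me3, 9.14% of them were in both samples, and the medians were 190 bp and a fold of 4.21. With only regions found in both samples, a choice made after seeing the data, the medians were 451 bp and a fold of 4.04. The share of regions with a mutant Rnf2 peak rests on 3 regions. It was above, not below, that of the other Rnf2 regions (0.417% against 0.338%) without H3K27me3 of wildtype replicate 2; the cause was not tested. Leaving out 1 sample at a time gave 409 to 825 regions, of which the lowest numbers, 409 and 416, came from using 1 Rnf2 sample, and gave shares of 6.42% to 6.50% in both samples, medians of 217.5 to 239 bp and folds of 3.51 to 3.69, 0.904% to 2.83% with a mutant H3K27me3 peak and 0.0815% to 0.417% with a mutant Rnf2 peak. Leaving out the chain on chromosome 22 or the regions near input peaks, also chosen after seeing the data, left 753 or 757 regions with 4.65% or 6.08% in both samples. Limma's plain test, followed by a limit of 1 on the log2 fold change, called 2 of the 17 variant PRC1 genes higher (*bcor* and *pcgf5b*). Among all 22685 genes it called 1457 higher and 769 lower. A test against no change, added later, called 12 of the 17, 9 higher and 3 lower (all genes: 6511 higher and 6192 lower). With the replicate block over the numbers shared by both genotypes (1, 2, 3 and 5), 0 were called and the median log2 fold change was 0.38, as without the block in the same libraries (all genes: 139 higher and 111 lower with the block, 138 and 108 without). Deviations of same-numbered libraries from their group means had correlations of −0.158 to 0.0339. For mutant replicate 5, the wildtype library with the highest correlation was that of its own number. Whether these libraries share more than a number cannot be settled from so few pairs. No paired analysis was possible for the peak lists because the genotypes share only number 2. The RNA of genes at the regions was planned and not run.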
